A study of Gallus gallus with 14 samples.

Results

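The lncRNAs described here are known transcripts of the NONCODE catalogue whose fragment counts separated hens by the prefix of their number, JH or JF. A transcript was taken when it had more than 3 fragments in every hen of a single prefix and 3 or fewer in every hen of the other, and when its locus was not on chromosome 16, Z or W. Known lncRNAs made up 7401 of the 9977 lncRNAs, and 7040 of these lay off the 3 chromosomes. The rule took 16 of them, 5 above 3 fragments in every JH hen and 11 above 3 fragments in every JF hen. They were chosen by their fragment counts in all 14 hens, so the difference between the prefixes is the basis of the choice and is given below as values with no test.

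The uterovaginal junction (UVJ) of 14 egg-laying hens was profiled by RNA sequencing, with 1 library per hen. The hens came from a single farm, were caged singly and were inseminated with pooled semen. Groups of 7 long-DF and 7 short-DF hens differed in duration of fertility (DF), the period or number of fertile eggs after 1 insemination, and each group held 4 JH and 3 JF hens. The labels give no strain or age. The study calls the hens egg-type chickens and gives the weeks of age of the trial for all of them, with no age per hen at sampling. Neither the labels nor the methods give the meaning of JH and JF. Anything else that differed between the prefixes, such as origin, time of sampling or sequencing run, therefore cannot be told apart from the prefix. All hens were inseminated and were given sodium pentobarbital before the tissue was taken, and the labels and methods name no other treatment and no altered allele.

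Long non-coding RNAs are transcripts without a recognisable open reading frame of appreciable length. Some act on the transcription of neighbouring genes, others on chromatin, RNA stability or translation, and many are transcribed at low level and in few tissues. The UVJ lies between the shell gland and the vagina and carries the sperm storage tubules, in which hens keep live sperm after mating. None of the 16 transcripts has a function stated in the sources used here. Since each library came from whole UVJ tissue and the table holds lncRNAs only, the tissue could not be checked against protein-coding markers, and fewer cells of a type and less RNA per cell cannot be told apart.

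The fragments on lncRNAs numbered 213304 to 281892 per hen, the JH hens having a median of 222324 and the JF hens of 238510, and the 16 transcripts took 0.022% to 0.0574% of them. The library totals behind the deposited FPKM (fragments per unit of transcript length and of library total) averaged 6665160 in JH and 7619383 in JF hens. Because these totals were further apart than the lncRNA fragments, ratios between the prefixes were 1.10 times as large for the JH-found and 0.908 times as large for the JF-found transcripts when scaled by them. A count of 0 allows up to 3 fragments, and this limit covers the counting error of the other prefix only. The lowest folds given below take the observed mean of the prefix where a transcript passed, without its counting error or spread. They are thus limits for that observed mean only and are not comparable with the pooled ratios. The intervals of those ratios cover counting error only. The intervals pool the fragments of all hens of a prefix and leave out the spread between hens. PCR copies were not distinguished from independent molecules. The rule chose the transcripts by this same contrast, so the intervals are no test of a difference between the prefixes.

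The working description of these transcripts as found in a single prefix held in full for few of them. Only 3 of the 16 had no fragment in any hen of the other prefix, and 9 had at least 1 fragment in every hen of it. The lowest count in the prefix where they passed was 4 or 5 fragments for 12 of them, and in 4 of these it was 1 fragment above the highest count of the other prefix. They are therefore named by the prefix in which they passed 3 fragments and are not called absent from the other.

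**Figure D1:**
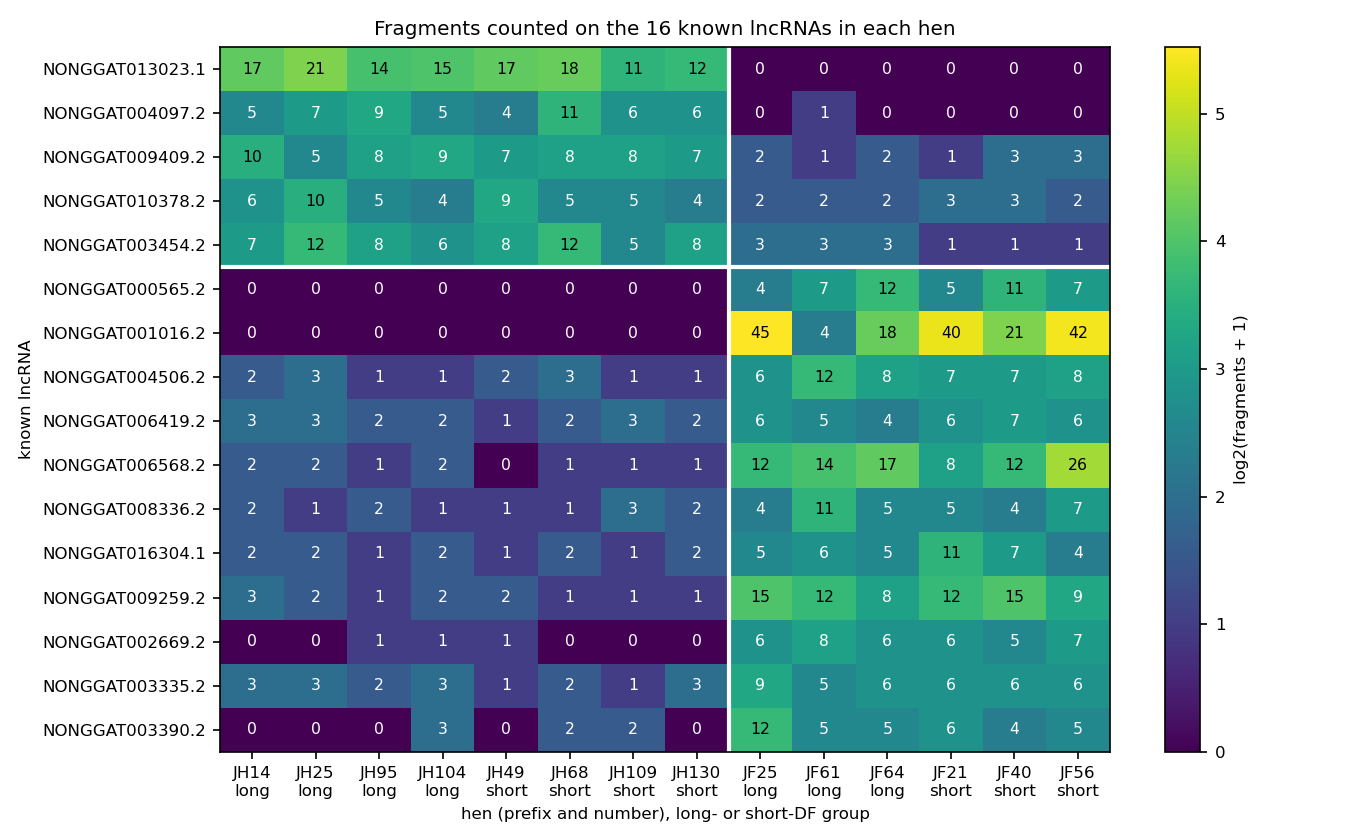
Fragments counted on each of the 16 lncRNAs (vertical axis) in each hen (horizontal axis, with its DF group), printed in the cells and coloured by log2(fragments + 1). The 5 upper lncRNAs passed 3 fragments in the 8 JH hens and the 11 lower ones in the 6 JF hens. NONGGAT013023.1, NONGGAT000565.2 and NONGGAT001016.2 had 0 in every hen of the other prefix.

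The rule was met by few transcripts. Among known lncRNAs off the 3 chromosomes with more than 3 fragments in every JH hen, 5 of 1388 (0.36%) had 3 or fewer in every JF hen. The same held in the JF direction for 11 of 1560 (0.705%). Over all lncRNAs, unknown ones and chromosomes 16, Z and W included, 14 of 2273 (0.616%) met it in the JH and 19 of 2556 (0.743%) in the JF direction, 33 in all. Of the 17 that are not described here, 16 were unknown lncRNAs and 1 was a known lncRNA on chromosome 16, Z or W.

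**Figure D2:**
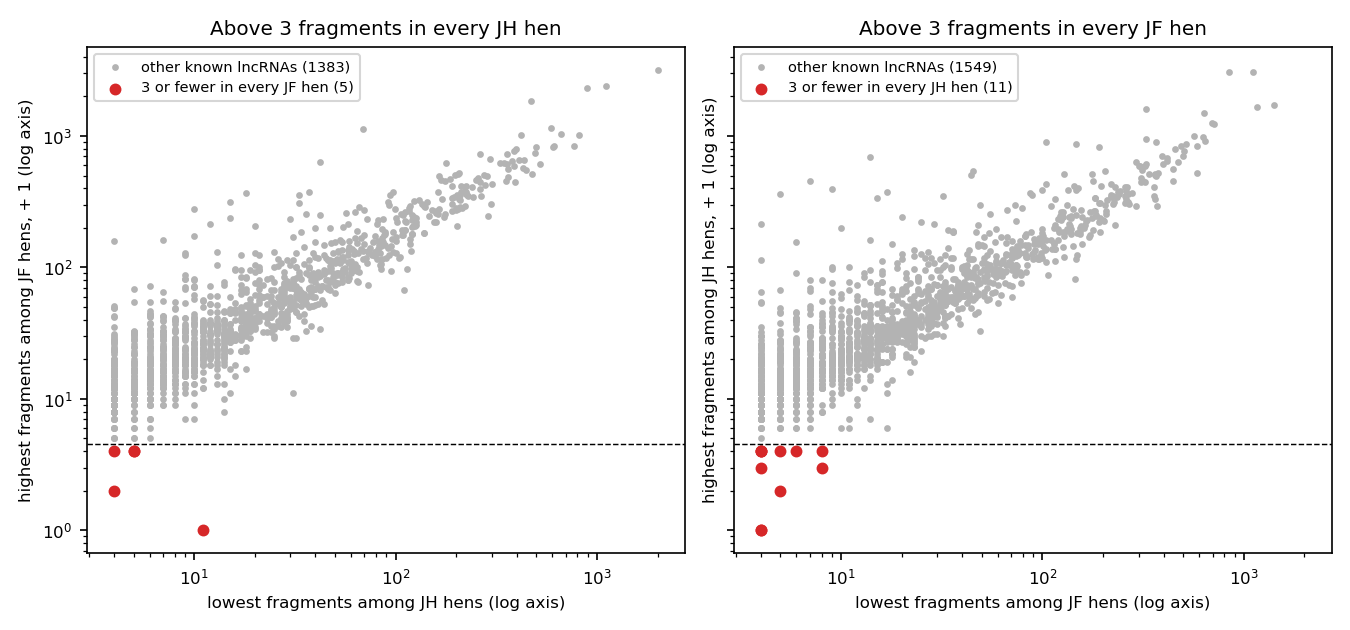
Known lncRNAs off chromosomes 16, Z and W with more than 3 fragments in every JH hen (left, 1388) or every JF hen (right, 1560), by their lowest count in that prefix (horizontal, log axis) and their highest count in the other prefix plus 1 (vertical, log axis). The red points under the dashed line are the 5 and 11 lncRNAs of the rule, which sit at the low end of the counts, with a lowest count of at most 11 on the left and 8 on the right.

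The 16 loci were spread over 10 chromosomes of the Galgal4 assembly, and none overlapped another. Spliced lengths ran from 272 to 3033 bases, with a median of 564.5 bases against 654 bases over the 7040 known lncRNAs from which they were drawn. The loci spanned 640 to 74932 bases, 1.14 to 125 times the spliced length. The table names neither strand nor exon positions for known lncRNAs, so an exonic, intronic or antisense position relative to genes is not given here, and none of the 16 identifiers or names was found in the current RefSeq gene table. The library kit kept the strand, but whether the counting used it is not stated. Reads from overlapping transcripts may thus have been divided between them.

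Among the JH-found transcripts, NONGGAT013023.1 (chr1:167631613-167634190, 309 bases) had the highest mean FPKM and the widest gap in counts, 11 against 0. It had 17, 21, 14 and 15 fragments in the long-DF hens JH14, JH25, JH95 and JH104, and 17, 18, 11 and 12 in the short-DF hens JH49, JH68, JH109 and JH130. All 6 JF hens had 0. Its mean FPKM in JH hens was 7.59 ± 1.50 (SD, n = 8). With 3 fragments set in every JF hen, the level relative to all lncRNA fragments was at least 5.37-fold higher in JH hens. It was the only transcript of the 16 that also met a stricter rule of more than 10 fragments against 3 or fewer, and no other lncRNA of the table overlapped its locus.

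NONGGAT004097.2 (chr2:61859579-61934510, 598 bases) spanned the longest locus of the 16. Its counts were 5, 7, 9 and 5 in long-DF and 4, 11, 6 and 6 in short-DF JH hens, in the order above. Among JF hens, only JF61 had a fragment, a single one. The ratio of JH to JF fragments, each over the summed lncRNA fragments, was 41.3, with an exact 95% counting interval of 7.09 to 1660, and the mean FPKM in JH hens was 1.64 ± 0.456 (SD, n = 8).

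The 3 other JH-found transcripts had fragments in every JF hen and ratios under 5. NONGGAT009409.2 (chr9:21631379-21636043), the longest of the 16 at 3033 bases, had 10, 5, 8 and 9 fragments in long-DF and 7, 8, 8 and 7 in short-DF JH hens against 1 to 3 in JF hens, a ratio of 4.02 (interval 2.15 to 8.20). NONGGAT003454.2 (chr19:4936652-4937797, 503 bases) had 7, 12, 8 and 6 in long-DF and 8, 12, 5 and 8 in short-DF JH hens. In the JF hens it had 3 fragments in each long-DF and 1 in each short-DF hen, and the ratio was 4.28 (2.29 to 8.70). NONGGAT010378.2 (chr11:10636542-10637185, 308 bases) lay closest to the limit, with 6, 10, 5 and 4 in long-DF and 9, 5, 5 and 4 in short-DF JH hens against 2 or 3 in every JF hen. Its ratio was 2.67 (1.45 to 5.24). Mean FPKM in JH hens was 0.386 ± 0.0838, 2.44 ± 0.628 and 2.95 ± 1.18 (SD, n = 8) for the 3 in this order.

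Of the 11 JF-found transcripts, NONGGAT001016.2 (chr1:117662087-117663688, 1410 bases) had the most fragments and the largest spread. It had 45, 4 and 18 in the long-DF hens JF25, JF61 and JF64, and 40, 21 and 42 in the short-DF hens JF21, JF40 and JF56. All 8 JH hens had 0. Its mean FPKM in JF hens was 2.71 ± 1.61 (SD, n = 6), and with 3 fragments set in every JH hen it was at least 9.21-fold higher in JF hens. The hen JF61 alone stood under 18 fragments and was at 4, the lowest count the rule allows.

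NONGGAT000565.2 (chr1:71250080-71258012, 758 bases) was the other JF-found transcript with 0 fragments in all 8 JH hens. Its counts were 4, 7 and 12 in long-DF and 5, 11 and 7 in short-DF JF hens, in the order above. The mean FPKM was 1.34 ± 0.575 (SD, n = 6), at least 2.47-fold higher in JF hens on the same terms.

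NONGGAT006568.2 (chr3:106803769-106804408), the shortest of the 16 at 272 bases, had the highest mean FPKM of the JF-found transcripts, 7.23 ± 3.35 (SD, n = 6). Long-DF JF hens had 12, 14 and 17 fragments and short-DF JF hens 8, 12 and 26, against 0 to 2 in JH hens, a ratio of 11.4 (5.93 to 24.7). NONGGAT002669.2 (chr14:10177132-10228440, 427 bases) had 6, 8 and 6 in long-DF and 6, 5 and 7 in short-DF JF hens. It was the steadiest of the JF-found transcripts, at 1.95 ± 0.276 FPKM, and had at most 1 fragment in any JH hen (ratio 16.3, 5.16 to 82.4). NONGGAT009259.2 (chr9:11067515-11071991, 2017 bases) had 15, 12 and 8 in long-DF and 12, 15 and 9 in short-DF JF hens and 1 to 3 in JH hens, a ratio of 7.02 (3.85 to 13.8) at 0.770 ± 0.180 FPKM.

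NONGGAT003390.2 (chr19:2277968-2290940, 1330 bases) combined 0 fragments in 5 JH hens with 2 or 3 in the other 3. The long-DF JF hens had 12, 5 and 5 and the short-DF JF hens 6, 4 and 5, so that JF25 held the highest count by a wide step. The ratio was 6.79 (2.99 to 18.0) and the mean FPKM 0.607 ± 0.270 (SD, n = 6).

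The other 5 JF-found transcripts had at least 1 fragment in every JH hen and ratios under 5. NONGGAT004506.2 (chr2:128148763-128151297, 531 bases) had 6, 12 and 8 in long-DF and 7, 7 and 8 in short-DF JF hens (ratio 4.40, 2.39 to 8.65). NONGGAT016304.1 (chr8:25499303-25511052, 372 bases) had 5, 6 and 5 in long-DF and 11, 7 and 4 in short-DF JF hens (3.75, 1.96 to 7.68). NONGGAT008336.2 (chr7:1556190-1563644, 2015 bases) had 4, 11 and 5 in long-DF and 5, 4 and 7 in short-DF JF hens (3.56, 1.84 to 7.31). In all 3 a single JF hen, JF61, JF21 and JF61 in turn, stood above the rest. NONGGAT003335.2 (chr18:9756899-9757593, 604 bases) had 9, 5 and 6 in long-DF and 6 in each short-DF JF hen (2.71, 1.51 to 5.05). NONGGAT006419.2 (chr3:81736856-81741610, 496 bases) had 6, 5 and 4 in long-DF and 6, 7 and 6 in short-DF JF hens against 1 to 3 in JH hens, the lowest ratio of all, 2.43 (1.33 to 4.56). Their mean FPKM in JF hens was 1.97 ± 0.400, 2.27 ± 1.02, 0.387 ± 0.147, 1.38 ± 0.291 and 1.51 ± 0.323 (SD, n = 6) in this order.

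Over the 13 transcripts with a fragment on both sides, the ratios ran from 2.43 to 41.3 with a median of 4.28, and 8 were under 5. No hen carried the whole set. Each JF hen had the highest FPKM of the 6 for 1 to 3 of the 11 JF-found transcripts, and their summed fragments ran from 89 in JF61 to 127 in JF56. The 5 JH-found transcripts summed to between 35 fragments in JH109 and 55 in JH25.

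The spread between hens of the same prefix was described by the coefficient of variation of FPKM. Its median was 38.05% over the 11 JF-found transcripts, against 23.75% over all 2556 lncRNAs above 3 fragments in every JF hen and 27.9% over the 1395 of these in the same range of mean counts. Over the 5 JH-found transcripts it was 25.7%, against 28.3% over 2273 lncRNAs and 30.6% over the 708 in the same range. NONGGAT001016.2 varied most, with its highest FPKM 12.8 times its lowest. It alone set the top of the JF range of mean counts, which ran from 5.67 to 28.3 fragments per hen. That range therefore does not match the other JF-found transcripts closely in count.

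Of the 16 loci, 5 were overlapped by other lncRNAs of the table, 8 in number, and 4 of these 8 had more than 3 fragments in no hen. When the fragments of all overlapping transcripts were added up, 13 of the 16 loci met the rule. The 11 loci with no overlapping transcript are among these 13 and could not change, since their sum is the count already used. The 3 that did not meet it were all among the 5 overlapped loci, those of NONGGAT000565.2, NONGGAT001016.2 and NONGGAT004097.2. They include 2 of the 3 transcripts with no fragment in the other prefix.

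NONGGAT000565.2 lay wholly within the locus of NONGGAT000564.2 (chr1:71249856-71258028, 1079 bases), a known lncRNA that JH hens did have. NONGGAT000564.2 had 15, 17, 13 and 10 fragments in long-DF and 9, 8, 7 and 5 in short-DF JH hens. The JF hens had 10, 4 and 2 in long-DF and 6, 3 and 5 in short-DF, so JF hens with many fragments on the shorter transcript had few on the longer one, as in JF64 with 12 and 2. Summed over both, the locus had 5 to 17 fragments in JH and 11 to 14 in JF hens, and the mean relative to all lncRNA fragments was 1.16 times as high in JF as in JH hens. The summed counts of the prefixes thus overlapped, as those of NONGGAT000564.2 alone did.

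At NONGGAT001016.2 the prefixes overlapped on the other transcript. The known lncRNA NONGGAT001015.2 (chr1:117659579-117663666, 1428 bases) shares 1580 bases of locus with it and had 24, 20, 20 and 18 fragments in long-DF and 13, 42, 22 and 23 in short-DF JH hens. In the JF hens it had 59, 104 and 37 in long-DF and 44, 34 and 42 in short-DF, and JH68 with 42 lay among them. JF61, with 4 fragments on NONGGAT001016.2, had the 104 on NONGGAT001015.2. The sums were 104, 108 and 55 in long-DF and 84, 55 and 84 in short-DF JF hens, a range of 1.96 times against 12.8 times in FPKM for NONGGAT001016.2 alone. JH hens had sums of 13 to 42, and the JF mean relative to all lncRNA fragments was 3.50 times the JH mean.

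NONGGAT004097.2 shares 1801 bases of locus with NONGGAT004096.2 (chr2:61856149-61861379, 777 bases), which was found in every hen. NONGGAT004096.2 had 34, 26, 45 and 33 fragments in long-DF and 25, 39, 37 and 48 in short-DF JH hens, and 9, 14 and 12 in long-DF and 14, 28 and 14 in short-DF JF hens. A pair of further transcripts within the span, NONGGAT014162.1 and NONGGAT014163.1, had at most 4 and 3 fragments in any hen. The locus as a whole had 31 to 57 fragments in JH and 10 to 31 in JF hens, 2.55 times as high in JH relative to all lncRNA fragments.

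At the remaining overlapped loci the other transcripts were near 0. NONGGAT009260.2, across the end of NONGGAT009259.2, had a fragment in no JH hen and at most 1 in a JF hen. At NONGGAT002669.2, NONGGAT002670.2 had 0 or 1 in JH and 2 or 3 in JF hens, and NONGGAT013447.1 had 0 in JH hens and at most 2 in JF hens. How fragments shared by overlapping transcripts were assigned is not stated, and its part in these differences was not tested.

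**Figure D3:**
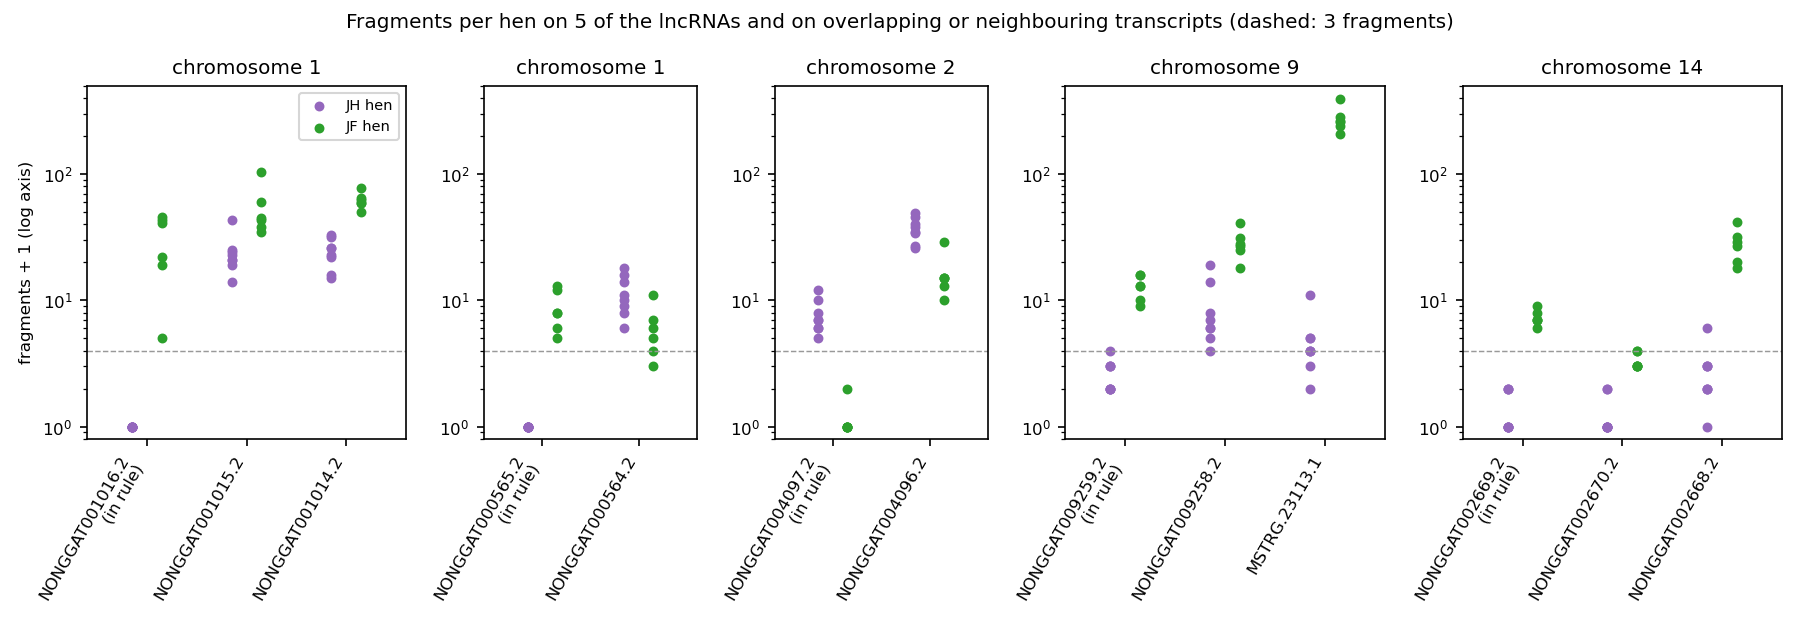
Fragments plus 1 per hen (log axis) on 5 of the lncRNAs, marked as in the rule, and on transcripts that overlap or neighbour them. Points are JH (purple) and JF (green) hens, and the dashed line marks 3 fragments. NONGGAT000564.2 and NONGGAT001015.2 had fragments in every JH hen where NONGGAT000565.2 and NONGGAT001016.2 had 0.

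Within 100 kb of the 16 loci lay 86 further lncRNAs that did not overlap them, near 15 of the loci and none near NONGGAT003335.2. In 34 of these no hen had more than 3 fragments. Of the 42 near JH-found transcripts, 1 did not overlap between prefixes relative to all lncRNA fragments and was higher in JH hens, and none was higher in JF hens. Of the 44 near JF-found transcripts, 3 did not overlap and were higher in JF hens, and none was higher in JH hens. Over all 9868 lncRNAs with a fragment, 115 (1.17%) were higher in JH and 147 (1.49%) higher in JF hens in this sense.

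These 4 neighbours were named after their values were seen. NONGGAT001968.2 (chr11:10629451-10630559), 5982 bases from NONGGAT010378.2, had 11 to 17 fragments in JH and 4 to 11 in JF hens. NONGGAT001014.2 (chr1:117649914-117660623), 1463 bases from NONGGAT001016.2 and overlapping NONGGAT001015.2, had 14 to 32 in JH and 49 to 77 in JF hens. NONGGAT002668.2 (chr14:10148241-10148991), 28140 bases from NONGGAT002669.2, had 0 to 5 in JH and 17 to 41 in JF hens. The largest counts were on the unknown lncRNA MSTRG.23113.1 (chr9:11077713-11088371), 5721 bases from NONGGAT009259.2 and classed as intronic on the plus strand with 2 exons, with 1 to 10 fragments in JH and 209 to 396 in JF hens. On the other side of NONGGAT009259.2, NONGGAT009258.2 had 3 to 18 in JH and 17 to 40 in JF hens, and the prefixes overlapped.

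Long- and short-DF hens were compared within the prefix in which each transcript passed the rule. The rule did not use the DF groups, but it asked for more than 3 fragments in every long- and short-DF hen of that prefix and so left out transcripts that were low in either group. None of the 16 was called. The quasi-likelihood test of edgeR was run over all lncRNAs that passed a filter on low values, with Benjamini-Hochberg adjustment. A call required a log2 fold change of 2 or more in either direction, p up to 0.01 and adjusted p up to 0.05. All 16 passed the filter, which asked for 6 or more hens at an FPKM of 0.1 or above. The p-values set the difference between long- and short-DF hens against the spread between these hens. The fit estimated that spread with information shared across the lncRNAs tested.

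Of the 11 JF-found transcripts 0 were called and none reached an unadjusted p under 0.05. Over all 7255 lncRNAs tested in JF hens the test called 4 (0.0551%), and an unadjusted p under 0.05 was reached by 264. Of the 2556 lncRNAs above 3 fragments in every JF hen, like these 11, it called 1 (0.0391%), and 78 reached such a p. The log2 fold changes of the 11 for long-DF over short-DF were above 0 for 5 and below 0 for 6. Their median was -0.02, beside -0.04 over all lncRNAs tested and 0.02 over those 2556. Of the 5 JH-found transcripts 0 were called and 0 reached an unadjusted p under 0.05, beside 1 call in 7286 (0.0137%) and 295 such p-values in JH hens, and beside 0 calls (0%) and 89 such p-values among the 2273 lncRNAs above 3 fragments in every JH hen. Here 3 were above and 2 below 0, with a median of 0.05 beside -0.01 over all lncRNAs tested and -0.01 over those 2273. By edgeR, the smallest unadjusted p was 0.289 among the JF-found and 0.525 among the JH-found transcripts.

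The smallest p among the 16 belonged to NONGGAT016304.1. Its FPKM was 1.78 ± 0.0922 in long-DF and 2.75 ± 1.38 in short-DF JF hens (SD, n = 3 each), the short-DF hen JF21 being the highest. The edgeR log2 fold change was -0.52 (SE 0.486, adjusted p = 0.989). The second smallest belonged to NONGGAT003390.2, at 0.689 ± 0.382 in long-DF and 0.525 ± 0.124 in short-DF JF hens. Its log2 fold change was 0.48 (SE 0.513, edgeR adjusted p = 0.989), and the highest hen was JF25 of the long-DF group.

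NONGGAT001016.2 had the largest fold change and the widest interval by edgeR. Its FPKM was 2.01 ± 1.85 in long-DF and 3.41 ± 1.25 in short-DF JF hens (SD, n = 3 each), with JF61 and its 4 fragments in the long-DF group. Summed with the overlapping NONGGAT001015.2, the fragments were 104, 108 and 55 in long-DF and 84, 55 and 84 in short-DF JF hens. The sum was thus not lower in long-DF hens, and its fold change was not tested. For NONGGAT001016.2 alone the values were as follows. The edgeR log2 fold change was -0.68 (SE 0.819, adjusted p = 0.989), and its 95% interval of -2.28 to 0.93 reached beyond a 4-fold difference.

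NONGGAT006419.2 was the only transcript of the 16 whose long- and short-DF hens did not overlap in FPKM, at 1.25 ± 0.229 against 1.77 ± 0.0885 in JF hens (SD, n = 3 each). This is 1 of 11 JF-found transcripts, and 299 of 2556 lncRNAs above 3 fragments in every JF hen (11.7%) did not overlap either. Its counts of 4 to 6 and 6 to 7 fragments gave a log2 fold change of -0.39 (SE 0.487, edgeR adjusted p = 0.989). None of the 5 JH-found transcripts was free of overlap, against 64 of 2273 (2.82%) in JH hens.

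The other 7 JF-found transcripts had log2 fold changes between -0.14, for NONGGAT006568.2, and 0.24, for NONGGAT008336.2, and adjusted p = 0.989 by edgeR. NONGGAT006568.2, one of the most abundant, had 6.62 ± 1.55 FPKM in long-DF and 7.85 ± 4.95 in short-DF JF hens, with JF56 at the top. NONGGAT000565.2 had 1.28 ± 0.756 against 1.39 ± 0.496 and NONGGAT002669.2 had 1.94 ± 0.207 against 1.96 ± 0.383, log2 fold changes of -0.02 and 0.09. For NONGGAT002669.2 the FPKM means and the fold change thus point in opposite directions. The FPKM is scaled by its own library totals and the edgeR fit by lncRNA fragments, and the reason was not tested.

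In JH hens the transcript with the largest change was NONGGAT013023.1, at 7.98 ± 1.44 FPKM in long-DF and 7.20 ± 1.67 in short-DF hens (SD, n = 4 each). Its log2 fold change of 0.16 (SE 0.255, edgeR adjusted p = 0.992) had the narrowest interval of the 16, -0.34 to 0.66. NONGGAT004097.2 was at -0.07, NONGGAT003454.2 at -0.04, NONGGAT010378.2 at 0.05 and NONGGAT009409.2 at 0.06. For all but NONGGAT001016.2 the edgeR 95% intervals lay between -2 and 2 on the log2 scale. Differences of any size within these intervals are compatible with these hens and counts. Being derived from p by the normal quantile with few hens per group, the intervals may be too narrow. By DESeq2 the SE was larger for each of the 16, for example 0.884 against 0.513 for NONGGAT003390.2 and 0.853 against 0.486 for NONGGAT016304.1. An edgeR interval within -2 and 2 therefore does not by itself exclude a 4-fold difference. The intervals are not limits of detection, and differences outside them could also have gone uncalled.

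**Figure D4:**
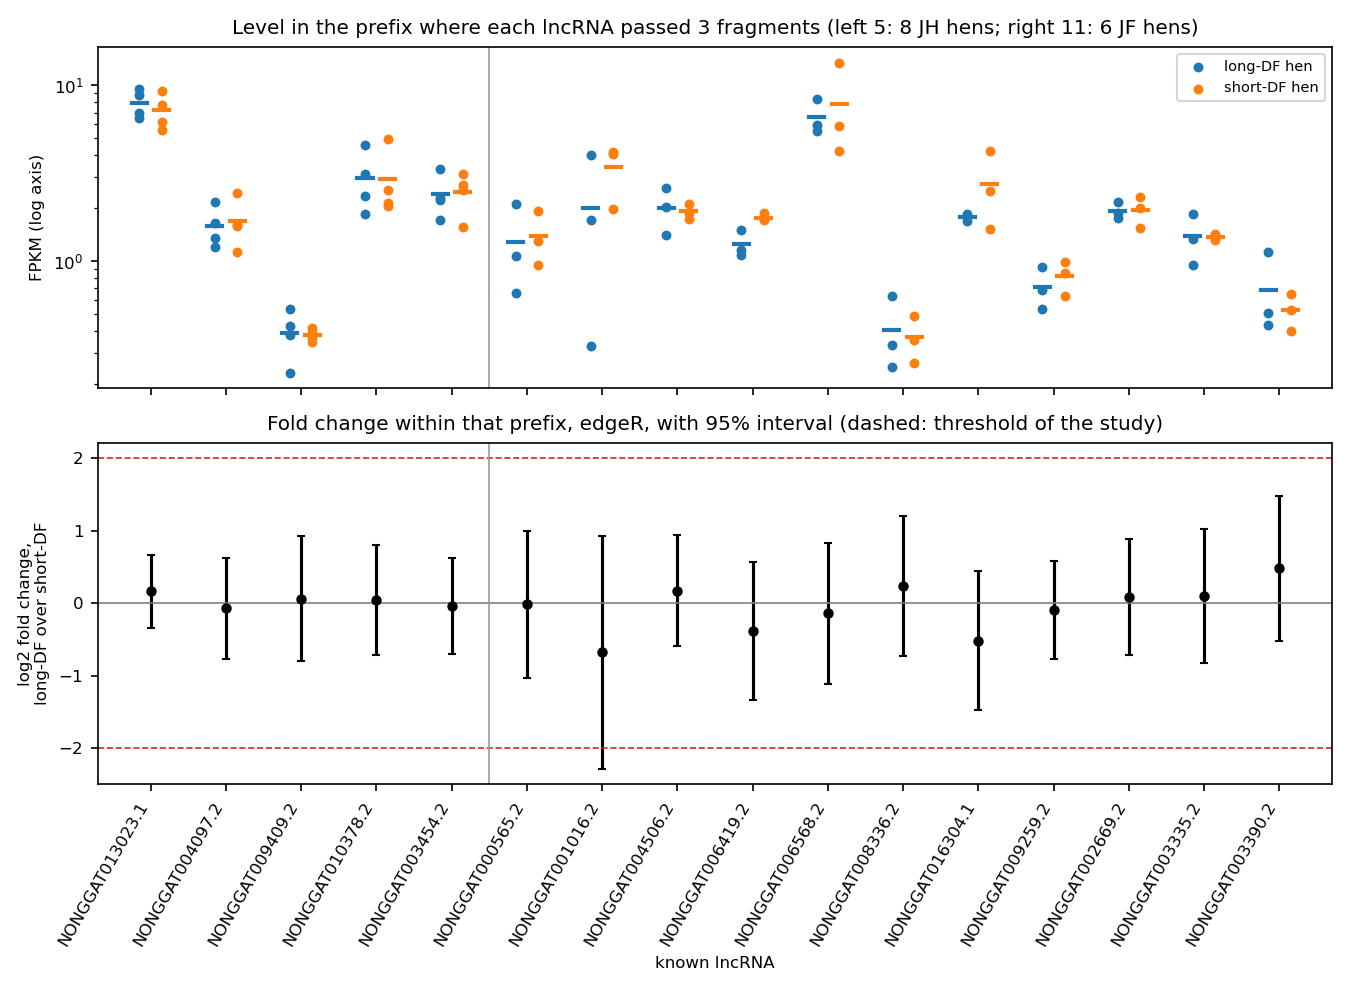
Top: FPKM (log axis) of the 16 lncRNAs in long-DF (blue) and short-DF (orange) hens of the prefix in which each passed 3 fragments, with bars at the means. Bottom: edgeR log2 fold change of long-DF over short-DF hens with its 95% interval. All 16 intervals cover 0, and that of NONGGAT001016.2 alone crosses the dashed line at -2.

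All 14 hens together gave no call among the 16 either. The log2 fold changes of the 16 ran from -0.69 to 0.32, 8 on either side of 0, and the smallest p by edgeR was 0.533, with an adjusted p = 0.996. With the prefix as a covariate they ran from -0.66 to 0.30 and the smallest p was 0.395, with an adjusted p = 0.990. No lncRNA of the 7297 tested over the 14 hens was called (0%), and 162 had an unadjusted p under 0.05. The study, by contrast, reported differentially expressed lncRNAs between its long- and short-DF groups with edgeR. The form of its test and its filter before testing are not stated in its methods, and why the results differ was not tested.

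Values just outside the rule were close to those just inside it. In the JH direction 8 known lncRNAs missed through a single hen, 5 of them by 1 fragment, and in the JF direction 16 did, 6 by 1 fragment. NONGGAT002813.2 had 6 to 19 fragments in JH hens and missed through 4 fragments in JF25. NONGGAT003990.2, at 4 to 19 in JH hens, missed through 4 in JF61, and NONGGAT015510.1 had 3 in JH130. In the JF direction NONGGAT001070.2 had 3 to 11 fragments in JF hens, with 3 in JF21, and NONGGAT002545.2 had 3 to 10, with 3 in JF25. NONGGAT014381.1 had 4 to 9 in JF hens and missed through 4 in JH130. Just inside, NONGGAT006419.2, NONGGAT008336.2, NONGGAT003390.2 and NONGGAT010378.2 each had a lowest count of 4 against a highest of 3.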

How the data were processed

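UVJ RNA of 14 hens was sequenced, 1 library per hen, from a stranded total RNA kit. TopHat (mapping to Galgal4), StringTie (assembly) and Gffcompare (annotation) were run by the authors, who then removed short, single-exon and potentially coding transcripts. The deposited table holds, per lncRNA and hen, a raw count of fragments and the FPKM that the authors normalized by length and library total. The counting tool is not given in the sources used here.

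Transcripts were chosen by the count rule on these files, and the 16, the tests and the rule for names were set with earlier results of these data known. Groups came from the sample titles. Named were the 6 with the highest mean FPKM per direction, any locus with 2 or more of the 16 (none was found), the 2 with the smallest p per prefix and direction, those with a lowest count of 4 or 5, those overlapped by a lncRNA above 3 fragments in every hen, all overlapping lncRNAs, and 3 near misses per prefix. Together these covered all 16. Counts were fitted with edgeR 4.0.16 (TMM, quasi-likelihood F test) in R 4.3.3 over lncRNAs that reached an FPKM of 0.1 in 6 or more hens, the size of the smaller prefix, with thresholds taken from the study's methods. Under 7 hens, 6887 lncRNAs and 14 of the 16 passed. The SE was taken from the p of each log2 fold change by the normal quantile, and 95% intervals are normal ones. The fit was tested on simulated data. The planned edgeR comparison of the prefixes is not reported, since the choice used that contrast. Ratios between prefixes are pooled fragments over pooled lncRNA fragments with exact 95% intervals, and lower limits use mean counts relative to all lncRNA fragments with 3 fragments in each hen of the other prefix.

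Alternatives were DESeq2 1.42.0, median-ratio scaling, other filters, limma 3.58.1 on log2(FPKM + 0.1) or log2(FPKM + 1), the prefix as a covariate, each hen left out, and other forms of the rule. Scaling ratios by the FPKM totals was added after seeing the data. Python 3.11.15 with numpy 2.4.6, pandas 2.3.3, scipy 1.17.1 and matplotlib 3.10.9 was used for the rest. The mRNA levels were not analysed here.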

Additional observations from a re-analysis of the deposited data

Results flagged for a closer look

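Of 26 groups of 4, 6 or 8 hens examined for a hen far from the others, 3 held one. The measure was the gap to the nearest hen over the range of the group. Its limits are passed in about 5% of groups when values are normally distributed. FPKM from few fragments need not be so distributed, so the 5% is only a rough guide. The groups of 4 JH hens lay within those of 8, so the groups were not independent. NONGGAT016304.1 had an FPKM of 4.23 in the short-DF hen JF21, while the other 5 JF hens lay between 1.52 and 2.50. NONGGAT003390.2 had 1.13 in the long-DF hen JF25, while the other 5 JF hens lay between 0.399 and 0.646. NONGGAT010378.2 had 4.95 in JH49 among the short-DF JH hens, while the other 3 lay between 2.07 and 2.55.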

How the results depend on the processing

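The set of 16 moved with the form of the rule. It fell to 3 when 0 fragments were required in the other prefix and to 1 with more than 10 fragments against 3 or fewer. With counts scaled to the median library it fell to 9 and lost NONGGAT009259.2, NONGGAT008336.2, NONGGAT006419.2, NONGGAT010378.2, NONGGAT003390.2, NONGGAT003454.2 and NONGGAT003335.2. Each of those lost had 3 fragments in a hen of the other prefix whose lncRNA fragments were below the median. Scaling put that count just above the limit of 3, so these losses follow from the whole-number limit. More than 5 against 5 or fewer gave 12, of which 4 were shared. Leaving out a hen at a time gave 16 to 20, but this could only keep or add transcripts, since the rule sets a condition on every hen. The number of lncRNAs called between long- and short-DF hens was 2 by DESeq2 and 0 to 1 with a hen left out over the 14 hens, where edgeR called 0. In JH hens it was 6 by DESeq2, 8 by limma with a pseudocount of 0.1 and 0 to 2 with a hen left out, against 1. In JF hens it was 7, 37 and 1 to 3, against 4. The cause was not tested. None of the 16 was among the calls under any of these settings: over 200 values from them in their own prefix, the smallest p was 0.0701, the smallest adjusted p was 0.769, and 0 had an unadjusted p under 0.05.

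The signs of the small fold changes were not stable. By limma, NONGGAT002669.2 was at -0.0045 with a pseudocount of 0.1 and -0.0059 with 1, NONGGAT003335.2 at -0.042 and -0.015, and NONGGAT009409.2 at -0.0012 with 0.1, where edgeR gave values above 0. With a hen left out, 23 of 106 values changed sign, in 12 of the 16. The log2 fold changes then ran from -0.60 to 0.30 for NONGGAT000565.2, -0.10 to 0.22 for NONGGAT002669.2, -0.16 to 0.30 for NONGGAT003335.2, -0.052 to 0.72 for NONGGAT003390.2, -0.20 to 0.064 for NONGGAT003454.2, -0.30 to 0.12 for NONGGAT004097.2, -0.065 to 0.38 for NONGGAT004506.2, -0.44 to 0.49 for NONGGAT006568.2, -0.25 to 0.50 for NONGGAT008336.2, -0.31 to 0.040 for NONGGAT009259.2, -0.048 to 0.27 for NONGGAT009409.2 and -0.19 to 0.36 for NONGGAT010378.2. The 4 that kept their sign were NONGGAT001016.2 (-1.64 to -0.18), NONGGAT006419.2 (-0.53 to -0.33), NONGGAT016304.1 (-0.81 to -0.06) and NONGGAT013023.1 (0.08 to 0.27). The sign for NONGGAT001016.2 is that of the transcript alone, without the fragments of the overlapping NONGGAT001015.2. No paired analysis was possible because the labels give each hen a number of its own and the replicate numbers used here follow accession order. Most of the 16 had 4 to 12 fragments per hen of the prefix in which they passed. The edgeR SE of the 16 log2 fold changes within that prefix ran from 0.255 to 0.819.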
